A study of Mus musculus with 9 samples.

Results

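The 10 genes described here encode the core of Polycomb repressive complex 2 (PRC2) and the enzymes that write, copy and remove DNA methylation. They were chosen by their symbols from the 32285 mouse genes of the count matrices, and each symbol matched 1 row: Ezh1, Ezh2, Eed and Suz12 for PRC2, Dnmt1, Uhrf1, Dnmt3a and Dnmt3b for DNA methylation, and Tet1 and Tet3 for its removal. Droplet-based single-cell RNA-seq had been made from the brains of 9 mice, 5 with EPZFTA-RELA ependymoma and 4 controls. The tumor-bearing mice had the genotype NestinCreERT2;Fus1 and the controls NestinCreERT2;TdT, so both groups carried the Cre allele, and only the controls are listed with the TdT reporter. Mice of both groups were 6 to 8 weeks old. CreERT2 is a Cre recombinase that tamoxifen activates, and its expression in cells that use the Nestin promoter, mainly neural stem and progenitor cells, decides where the ZFTA-RELA fusion can be switched on. Live cells without the erythroid antigen Ter119 were sorted from dissociated tissue, with no selection for a neural or immune cell type. Each mouse was 1 sample, and the sample records do not say that replicate numbers tie a tumor to a control.

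PRC2 places methyl groups on lysine 27 of histone H3, a mark of silent developmental genes. Its enzyme is either EZH2, which is abundant in dividing cells, or EZH1, which is the usual form in resting and mature cells, and EED and SUZ12 hold the complex together. DNMT1 copies CpG methylation onto newly made DNA, to which UHRF1 brings it, DNMT3A and DNMT3B add methylation at new sites, and TET enzymes oxidize it as the first step of its removal. In the brain, DNMT3A methylates the genome of maturing neurons.

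On mouse build GRCm38, the build of the files (mm10), GENCODE places Ezh1 on chromosome 11 from 101191115 to 101226463, Ezh2 on chromosome 6 from 47530139 to 47595341, Eed on chromosome 7 from 89954654 to 89980983 and Suz12 on chromosome 11 from 79993106 to 80034123. The methylation genes are Dnmt1 on chromosome 9 from 20907209 to 20959888, Uhrf1 on chromosome 17 from 56303321 to 56323486, Dnmt3a on chromosome 12 from 3806007 to 3914443 and Dnmt3b on chromosome 2 from 153649450 to 153687730, and the oxidases are Tet1 on chromosome 10 from 62804570 to 62908996 and Tet3 on chromosome 6 from 83362373 to 83459084.

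The starts of these genes are shown because several of the members were higher in dividing tumor cells, and E2F factors, which switch on genes at the start of DNA synthesis, bind words such as those searched here. The windows run from 250 bases before a RefSeq transcript start to base 30 from that start on, 280 bases in all, on GRCm38.p6, and all 10 members had at least 1 window in the RefSeq table. The words TTTCCCGC, TTTCGCGC, TTTGCCGC and TTTGGCGC were searched on both strands (GCGGGAAA, GCGCGAAA, GCGGCAAA and GCGCCAAA on the other strand). At least 1 of them was found in 4 of the 10 members, Ezh2, Suz12, Dnmt1 and Uhrf1, and in 661 of 27025 genes of the table, or 2.45% of genes and 2.12% of windows. The 10 members had 15 windows, of which 4 held a match. The difference from all genes was not tested, and genes with starts of like base content were not set beside the members. The other 6 members had none, among them Eed, which was also higher in dividing tumor cells. A match is a description of the letters and was not tested as a binding site. The 4 windows with a match and, for comparison, that of Ezh1, which has none, are printed from 5′ to 3′ of each gene's own strand, with the matching word in capitals.
Ezh2 (chr6:47595001-47595280, minus strand): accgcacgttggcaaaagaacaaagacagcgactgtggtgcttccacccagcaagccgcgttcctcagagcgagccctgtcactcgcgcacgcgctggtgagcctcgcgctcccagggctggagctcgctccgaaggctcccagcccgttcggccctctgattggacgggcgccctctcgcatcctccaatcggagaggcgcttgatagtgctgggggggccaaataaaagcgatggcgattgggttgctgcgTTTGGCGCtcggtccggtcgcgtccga
Suz12 (chr11:79992856-79993135, plus strand): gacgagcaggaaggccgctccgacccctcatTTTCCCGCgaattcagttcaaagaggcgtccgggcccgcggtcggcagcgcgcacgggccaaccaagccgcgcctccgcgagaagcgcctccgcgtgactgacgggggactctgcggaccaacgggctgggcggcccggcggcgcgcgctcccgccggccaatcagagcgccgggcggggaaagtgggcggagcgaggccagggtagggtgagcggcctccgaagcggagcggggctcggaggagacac
Dnmt1 (chr9:20952594-20952873, minus strand): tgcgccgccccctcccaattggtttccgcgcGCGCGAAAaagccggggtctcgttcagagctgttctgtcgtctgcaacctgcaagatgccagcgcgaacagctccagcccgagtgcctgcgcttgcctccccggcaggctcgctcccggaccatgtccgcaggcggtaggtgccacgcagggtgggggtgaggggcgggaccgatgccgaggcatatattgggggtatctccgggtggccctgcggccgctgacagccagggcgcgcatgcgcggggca
Uhrf1 (chr17:56304063-56304342, plus strand): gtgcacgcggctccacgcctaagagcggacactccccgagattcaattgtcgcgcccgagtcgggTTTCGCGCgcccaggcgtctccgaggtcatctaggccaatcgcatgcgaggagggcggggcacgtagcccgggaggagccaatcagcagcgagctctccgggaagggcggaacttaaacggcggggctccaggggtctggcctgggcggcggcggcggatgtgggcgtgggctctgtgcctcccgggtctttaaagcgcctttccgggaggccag
Ezh1 (chr11:101226434-101226713, minus strand): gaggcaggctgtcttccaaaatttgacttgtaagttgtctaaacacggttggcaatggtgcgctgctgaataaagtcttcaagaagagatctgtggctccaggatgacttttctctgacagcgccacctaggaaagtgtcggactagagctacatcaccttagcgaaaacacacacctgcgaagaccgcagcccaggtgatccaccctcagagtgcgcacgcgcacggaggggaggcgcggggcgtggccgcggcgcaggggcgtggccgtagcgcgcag
Counted from the transcript start as position 1, the word begins at position 4 in Ezh2, at -219 in Suz12, at -219 in Dnmt1 and at -185 in Uhrf1. The Suz12 and Ezh1 windows lie before the annotated gene apart from their last 30 bases. Those of Ezh2, Dnmt1 and Uhrf1 lie inside the annotated gene, because GENCODE lists an earlier start for each, and the other 2 Dnmt1 windows and the other Uhrf1 window held no match.

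Before the results, the libraries themselves have to be described. The control libraries held 101060608 to 178086164 UMIs (unique molecular identifiers, each standing for 1 captured transcript) and gave 4023 to 6365 kept cells each, 20403 in all. The tumor libraries held 14967680 to 69411387 UMIs and gave 1721 to 5121 kept cells, 15916 in all. Of these UMIs the kept cells held 13763731 to 21703892 per control library and 5902794 to 37644349 per tumor library. The median per kept cell was 2032 to 4115 UMIs in control libraries and 2068 to 6512 in tumor libraries. Of the 10000 barcodes considered per library (9001 in tumor replicate 3), 19 to 45 were shared by a pair of libraries, counted without control replicate 4, whose barcode list is shorter than its matrix. No 2 libraries of the same group were alike enough to be 1 library deposited again. Transcripts of the fusion allele (fusion and luciferase together) had 0 UMIs in the kept cells of each control and 88, 1490, 139, 11450 and 1486 UMIs in tumor replicates 1 to 5. Tumor replicate 3 had the fewest kept cells, 1721 of 9001 barcodes considered. A fixed mitochondrial limit of 10% would have kept 4287, 9177 and 9138 cells of tumors 3 to 5, in place of 1721, 5121 and 3645. It would have kept 1254 and 3052 cells of tumors 1 and 2, in place of 2366 and 3063. In controls 1 to 4 it would have kept 5052, 4019, 3842 and 4438, in place of 6365, 5015, 4023 and 5000. For control replicate 4 the count of 0 rests on the row order of the other libraries.

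Cells were gated on marker genes, none of which is a member. Tumor cells, meaning cells with neural progenitor markers such as Sox2, Nes and Fabp7 and no other class, made up 7.86%, 44.5%, 15.05%, 72.0% and 49.1% of the kept cells of tumor replicates 1 to 5. Cells passing the same gate made up 0.08% to 0.323% of control cells. The fusion allele was at 56.0, 135, 83.1, 356 and 122 counts per 1000000 UMIs (CPM) in these tumor cells of replicates 1 to 5. In microglia-like cells of the same tumors it was at 7.59, 14.5, 1.21, 53.0 and 21.4 CPM. Most kept cells of controls fell in no class and are called ungated. They were 5325 of 6365, 3720 of 5015, 2768 of 4023 and 3804 of 5000 cells in controls 1 to 4. In tumors 1 to 5 ungated cells were 945 of 2366, 265 of 3063, 360 of 1721, 223 of 5121 and 569 of 3645. Sums over all control cells are thus mostly sums of ungated cells. Each value below is a sum of UMIs over the cells of a class in 1 mouse, given as CPM of that sum. The 5′ libraries read transcripts near their starts and carry no length scale, so levels are compared between samples and classes for 1 gene at a time and not between genes.

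Over all kept cells, 5 of the 10 members were higher and 2 lower in tumors than in control brains (edgeR, adjusted p under 0.05). The background was high. Of the 17596 genes tested, 61.7% were called, 32.3% higher and 29.4% lower, which split into 5681 higher and 5175 lower with TMM scaling, which sets the typical gene to no change, and 4702 and 5623 without. The median log2 fold change was 0.47 over the members and 0.04 over all genes. Leaving out 1 mouse at a time left 4 or 5 members higher and 2 lower. The CPM ranges of the 2 groups did not overlap for 6 members, 4 higher and 2 lower, beside 57.0% of all genes, 23.8% higher and 33.2% lower. In such sums more cells of a type and more RNA per cell cannot be told apart. Of the members higher in these counts, Uhrf1 passed the count filter through the tumors, where it is high. Nothing is therefore read from the counts or the median over the members.

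The catalytic subunits of PRC2 moved in opposite directions. Ezh2 (ENSMUSG00000029687) was at 20.5, 20.6, 21.3 and 21.0 CPM in controls 1 to 4 and at 27.6, 58.7, 40.2, 55.5 and 84.3 CPM in tumors 1 to 5. All 5 tumors lay above all controls, and the controls lay within 1 CPM of each other. The means were 20.8 ± 0.397 CPM (SD, n = 4) and 53.3 ± 21.4 CPM (SD, n = 5), and the fitted log2 fold change was 1.66 ± 0.35 (SE; edgeR adjusted p = 0.00324), a 3.15-fold difference. Ezh1 (ENSMUSG00000006920) was at 56.1, 53.8, 53.9 and 54.4 CPM in controls and at 42.7, 22.4, 39.4, 20.5 and 31.7 CPM in tumors. Here all 5 tumors lay below all controls, with a log2 fold change of -0.60 ± 0.16 (SE; edgeR adjusted p = 0.00965).

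The scaffold subunits differed less. Suz12 (ENSMUSG00000017548), which the complex needs for activity, was at 46.4, 43.5, 44.2 and 43.1 CPM in controls and at 51.2, 75.8, 53.8, 52.0 and 79.1 CPM in tumors. The ranges did not overlap, although tumors 1, 3 and 4 stood only slightly above the controls, and the log2 fold change was 0.77 ± 0.23 (SE; edgeR adjusted p = 0.0164). Eed (ENSMUSG00000030619), the subunit that reads the finished mark, was at 24.1 to 25.8 CPM in controls and 21.0 to 25.01 CPM in tumors, overlapping ranges with a log2 fold change of 0.17 ± 0.17 (SE; edgeR adjusted p = 0.384).

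Of the methylation enzymes, Uhrf1 (ENSMUSG00000001228) had the largest fold difference of the members. It was close to absent from the controls, with 9, 10, 12 and 14 UMIs or 0.654, 0.465, 0.757 and 0.645 CPM. The tumors had 36, 655, 87, 1333 and 730 UMIs, or 6.099, 38.8, 12.4, 35.4 and 45.4 CPM. Every tumor was above every control, and the log2 fold change was 5.80 ± 0.75 (SE; edgeR adjusted p = 0.000312). It passed the count filter through the tumors, and in the fit with no filter the log2 fold change was 5.83 ± 0.73 (SE; edgeR adjusted p = 0.000211). Pooled over mice the ratio was 55.0 with a 95% counting interval of 41.0 to 75.6, which covers counting error only.

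Dnmt1 (ENSMUSG00000004099), the maintenance methyltransferase, was at 31.5, 31.1, 31.4 and 32.9 CPM in controls and at 27.1, 67.8, 31.0, 72.8 and 110 CPM in tumors. Tumors 1 and 3 lay just below the controls and tumors 2, 4 and 5 well above them, so the tumors fell on both sides of the controls. The call (log2 fold change 1.29 ± 0.45, SE; edgeR adjusted p = 0.0310) did not hold in 7 of the 9 fits that left out 1 mouse, with adjusted p from 0.0501 to 0.0709, nor under voom (adjusted p = 0.0705) or without TMM scaling (adjusted p = 0.0522). Tumors 1 and 3 also had the smallest shares of tumor cells, whose part in the difference was not tested.

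The de novo enzymes differed in direction. Dnmt3a (ENSMUSG00000020661) was at 126.2, 121, 144 and 130 CPM in controls and at 92.8, 61.9, 100.0, 68.6 and 64.7 CPM in tumors. All tumors were below all controls (log2 fold change -0.53 ± 0.14, SE; edgeR adjusted p = 0.00898). Neuron-like cells, the gated class in which Dnmt3a was highest, made up 8.81% to 20.1% of the kept cells of controls. They made up 0.430% to 18.7% of the kept cells of tumor-bearing mice. Ungated cells, most of the control cells, held Dnmt3a at 129, 121, 151 and 129 CPM in controls 1 to 4. In tumors 1 to 5 ungated cells held it at 114, 69.9, 160, 68.1 and 73.5 CPM. The part of either class in the difference was not tested. Dnmt3b (ENSMUSG00000027478) was sparse, with 15 to 20 UMIs per control and 13 to 95 per tumor. Its levels were 1.31, 0.698, 1.26 and 0.783 CPM in controls and 2.20, 1.72, 2.84, 2.52 and 2.73 CPM in tumors, without overlap (log2 fold change 1.51 ± 0.32, SE; edgeR adjusted p = 0.00333).

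The oxidases were not called. Tet1 (ENSMUSG00000047146) was at 20.0 to 24.3 CPM in controls and 8.29 to 22.8 CPM in tumors, with a log2 fold change of -0.26 ± 0.25 (SE; edgeR adjusted p = 0.367). Tet3 (ENSMUSG00000034832) was at 74.8 to 86.2 CPM in controls and 47.1 to 85.4 CPM in tumors, where only tumor 3 reached the control range (log2 fold change -0.18 ± 0.18, SE; edgeR adjusted p = 0.414). TMM scaling moved the median of all genes by 0.24 on the log2 scale in this comparison, and without it Eed had the opposite sign (-0.09) and the 2 lower members stayed lower.

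**Figure D1:**
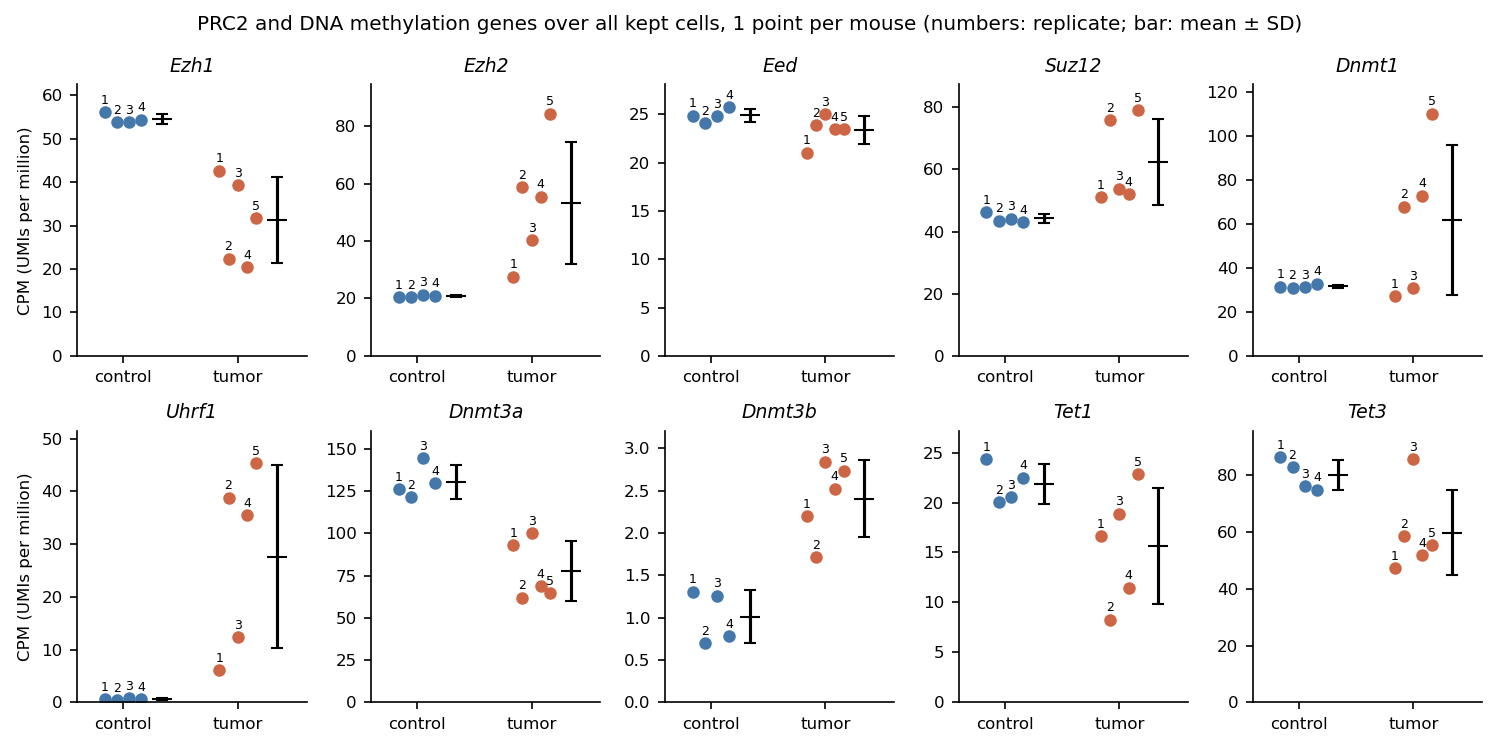
Levels of the 10 genes summed over all kept cells, in CPM on a linear axis from 0, with 1 point per mouse marked by its replicate number and the mean ± SD of each group beside the points. Ezh2, Suz12, Uhrf1 and Dnmt3b lie higher in all 5 tumors than in all 4 controls, Ezh1 and Dnmt3a lower, and for Eed, Dnmt1, Tet1 and Tet3 the groups are not separated.

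The balance of the enzymes can be read within a library as the share of Ezh2 among the UMIs of Ezh1 and Ezh2 together, which does not depend on the scaling of libraries. It was 26.8%, 27.7%, 28.4% and 27.9% in controls 1 to 4. In tumors 1 to 5 it was 39.3%, 72.4%, 50.5%, 73.0% and 72.7%. No tumor overlapped the controls, and tumors 1 and 3 stood between the controls and the other 3 tumors. The mean was 27.7% ± 0.669 (SD, n = 4) in controls and 61.6% ± 15.7 (SD, n = 5) in tumors, a difference of 33.9 percentage points (two-sided exact permutation test over all splits, p = 0.0159). Leaving out 1 mouse at a time gave differences of 31.1 to 39.5 points.

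Within the tumors the share differed between the gates. In cycling tumor cells, those with S or G2/M transcripts above a limit, it was 88.1% in tumor 2, 90.1% in tumor 4 and 86.0% in tumor 5. In non-cycling tumor cells of the same tumors it was 58.7%, 60.02% and 70.3%. The share was higher in cycling cells in 3 of 3 tumors, by 25.1 points on average and by 15.8 to 30.04 points singly. A two-sided exact sign-flip permutation test gave p = 0.25, the smallest p that 3 tumors allow. Non-cycling tumor cells of tumors 1 and 3 had 37.8% (exact 95% interval 22.5% to 55.2%, from 37 UMIs) and 59.6% (45.1% to 73.0%, from 52 UMIs).

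The other classes ranged widely. OPC-like cells (oligodendrocyte precursors) had 81.1%, 62.1%, 71.9% and 78.9% in tumors 2 to 5, from 19 to 139 UMIs, and cells with both microglia and macrophage markers had 67.6% and 60.5% in tumors 2 and 4. Microglia-like cells had an Ezh2 share of 26.5% ± 6.40 (SD, n = 4) in controls and 37.8% ± 12.2 (SD, n = 5) in tumors, and neuron-like cells had 22.7% ± 2.999 (SD, n = 4) and 34.6% ± 13.3 (SD, n = 4). Free RNA, taken as the sum of the 3000 lowest-count barcodes in a library, had 13.7% to 26.4% in controls and 31.6% to 65.0% in tumors. These barcodes are only a stand-in for free RNA, since they held medians of 559 to 1338 UMIs and may include small cells, and in tumor 3 they are among the 9001 barcodes considered as cells. The part of free RNA in the shares of the other classes was not tested.

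**Figure D2:**
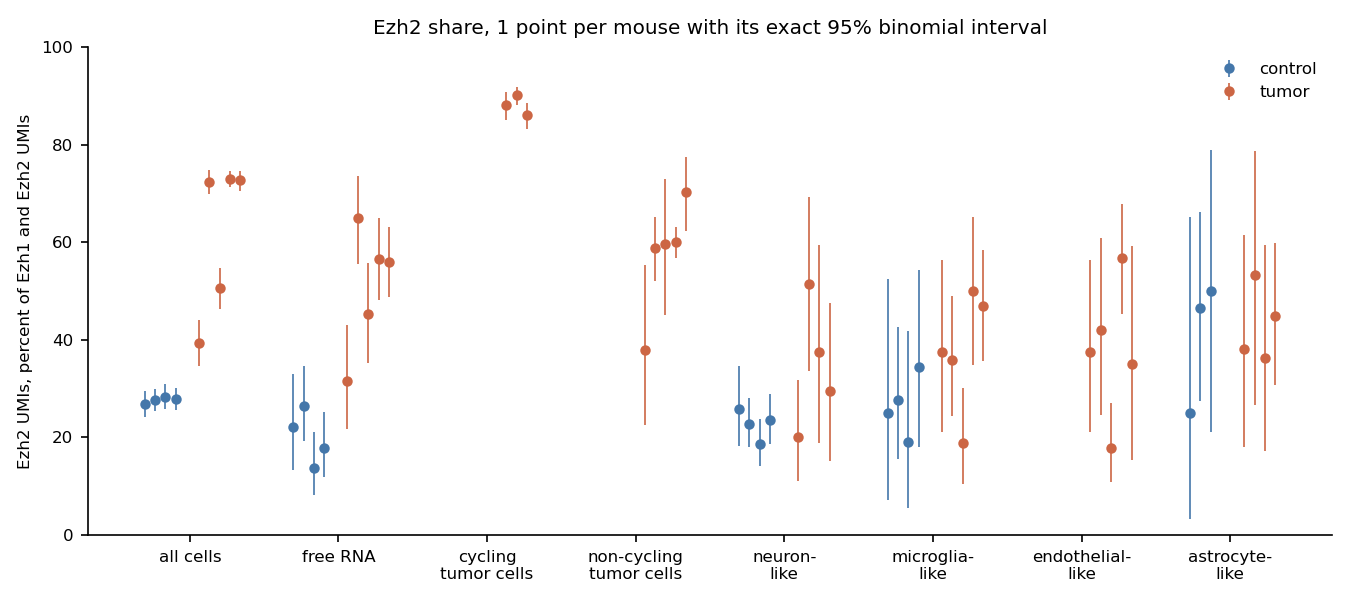
Share of Ezh2 among the UMIs of Ezh1 and Ezh2 in percent, by class of cells, with 1 point per mouse and its exact 95% binomial interval, for controls and tumors in classes with at least 50 cells. Cycling tumor cells sit between 86.0% and 90.1%, non-cycling tumor cells between 37.8% and 70.3%, and the sums over all control cells between 26.8% and 28.4%.

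Several members were much higher in dividing tumor cells. Tumors 2, 4 and 5 had at least 50 cycling cells each (430, 732 and 660), and their sums were compared with those of 642, 2385 and 524 non-cycling cells, with the tumor as a block. Of the 9 members tested, 5 were higher and 1 lower in cycling cells (edgeR, adjusted p under 0.05), beside 33.2% of 12120 genes, 17.3% higher and 15.9% lower. The genes called split into 2092 higher and 1930 lower with TMM scaling and 1809 and 2756 without. The median log2 fold change was 0.63 over the members and -0.05 over all genes. No member is among the 15 S and 18 G2/M genes of the gate.

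Dnmt1 was at 188, 203 and 208 CPM in the cycling cells of tumors 2, 4 and 5 and at 27.2, 34.4 and 54.9 CPM in their non-cycling cells. The lowest cycling value was more than 3 times the highest non-cycling one (log2 fold change 2.52 ± 0.14, SE; edgeR adjusted p = 1.85e-07). Its partner Uhrf1 was at 91.9, 101 and 94.8 CPM against 29.1, 21.0 and 32.7 CPM, again without overlap (log2 fold change 1.97 ± 0.15, SE; edgeR adjusted p = 2.63e-06). Non-cycling cells of tumors 1 and 3, which had too few cycling cells for the comparison, held 9 Dnmt1 UMIs each and 5 and 8 Uhrf1 UMIs. Free RNA of tumors 2, 4 and 5 held 47.3, 57.0 and 90.2 CPM of Dnmt1 and 40.0, 40.7 and 36.0 CPM of Uhrf1. For both genes these lay above the non-cycling and below the cycling cells of each tumor. The part of free RNA in these levels was not tested.

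Ezh2 was at 139, 141 and 158 CPM in cycling and at 37.6, 31.9 and 48.0 CPM in non-cycling cells of tumors 2, 4 and 5. The classes were well separated, with a 4.07-fold difference (log2 fold change 2.02 ± 0.12, SE; edgeR adjusted p = 1.85e-07). Suz12 followed at 132, 88.2 and 114 CPM against 62.0, 41.5 and 60.9 CPM (log2 fold change 1.11 ± 0.10, SE; edgeR adjusted p = 8.43e-06). Eed was at 28.6, 30.9 and 28.8 CPM against 21.2, 20.3 and 19.4 CPM, a smaller difference that was present in all 3 tumors (log2 fold change 0.63 ± 0.13, SE; edgeR adjusted p = 0.00345). Ezh2 and both scaffold subunits were thus called higher.

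Ezh1 was not called. It was at 18.8, 15.5 and 25.6 CPM in cycling and 26.4, 21.2 and 20.3 CPM in non-cycling cells, lower in tumors 2 and 4 and higher in tumor 5 (log2 fold change -0.18 ± 0.17, SE; edgeR adjusted p = 0.436). Dnmt3a was at 59.7, 64.2 and 49.6 CPM against 71.8, 70.1 and 59.5 CPM, below its non-cycling level in each tumor, and was not called (log2 fold change -0.13 ± 0.10, SE; edgeR adjusted p = 0.366). Dnmt3b had 7, 11 and 15 UMIs in cycling cells and 11, 47 and 1 in non-cycling cells and did not pass the filter on low counts.

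Tet1 was the member called lower in cycling cells, at 5.97, 7.89 and 17.8 CPM against 10.9, 13.001 and 24.9 CPM. It was lower in each tumor, while tumor 5 was higher than the others in both classes, so the classes overlapped across tumors (log2 fold change -0.59 ± 0.17, SE; edgeR adjusted p = 0.0195). The call was lost with DESeq2 (adjusted p = 0.141), with tumor cells taken by the fusion allele (edgeR adjusted p = 0.110), and without tumor 2 (0.0854) or tumor 4 (0.110). Free RNA of tumors 2, 4 and 5 held 13.5, 22.7 and 20.5 CPM of Tet1. This was above the cycling cells in each tumor and above the non-cycling cells in tumors 2 and 4. Its part in the difference was not tested. Tet3 was at 61.4, 48.9 and 60.6 CPM against 61.0, 52.9 and 57.7 CPM, values that overlapped (log2 fold change 0.05 ± 0.10, SE; edgeR adjusted p = 0.710).

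Cycling cells were then divided by whether S or G2/M transcripts prevailed, giving 164, 140 and 132 S cells and 178, 388 and 355 G2/M cells in tumors 2, 4 and 5. Of the 9 members tested, 2 were higher in S cells and none was lower (edgeR, adjusted p under 0.05), beside 11.7% of 9981 genes, 5.50% higher and 6.19% lower (549 and 618 genes with TMM scaling, 579 and 556 without). The median log2 fold change was 0.14 over the members and 0.03 over all genes.

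The members called were the maintenance pair. Uhrf1 was at 128, 148 and 138 CPM in S cells and 56.4, 61.3 and 67.3 CPM in G2/M cells (log2 fold change 1.15 ± 0.13, SE; edgeR adjusted p = 1.73e-08). Dnmt1 was at 193, 252 and 282 CPM in S cells and 157, 145 and 156 CPM in G2/M cells (log2 fold change 0.64 ± 0.12, SE; edgeR adjusted p = 0.000129). For both genes the S and G2/M values did not overlap, and the non-cycling values given above were lower than either.

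Ezh2 was at 108, 131 and 141 CPM in S cells and 157, 140 and 155 CPM in G2/M cells, a difference toward G2/M that did not pass (log2 fold change -0.27 ± 0.12, SE; edgeR adjusted p = 0.161). Suz12 (log2 fold change -0.18 ± 0.13, SE), Eed (0.14 ± 0.21), Ezh1 (0.41 ± 0.23), Dnmt3a (0.28 ± 0.15), Tet1 (-0.17 ± 0.36) and Tet3 (0.05 ± 0.15) did not pass either, with edgeR adjusted p from 0.278 to 0.894. Dnmt3b, with 2 to 9 UMIs per sum, was not tested.

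**Figure D3:**
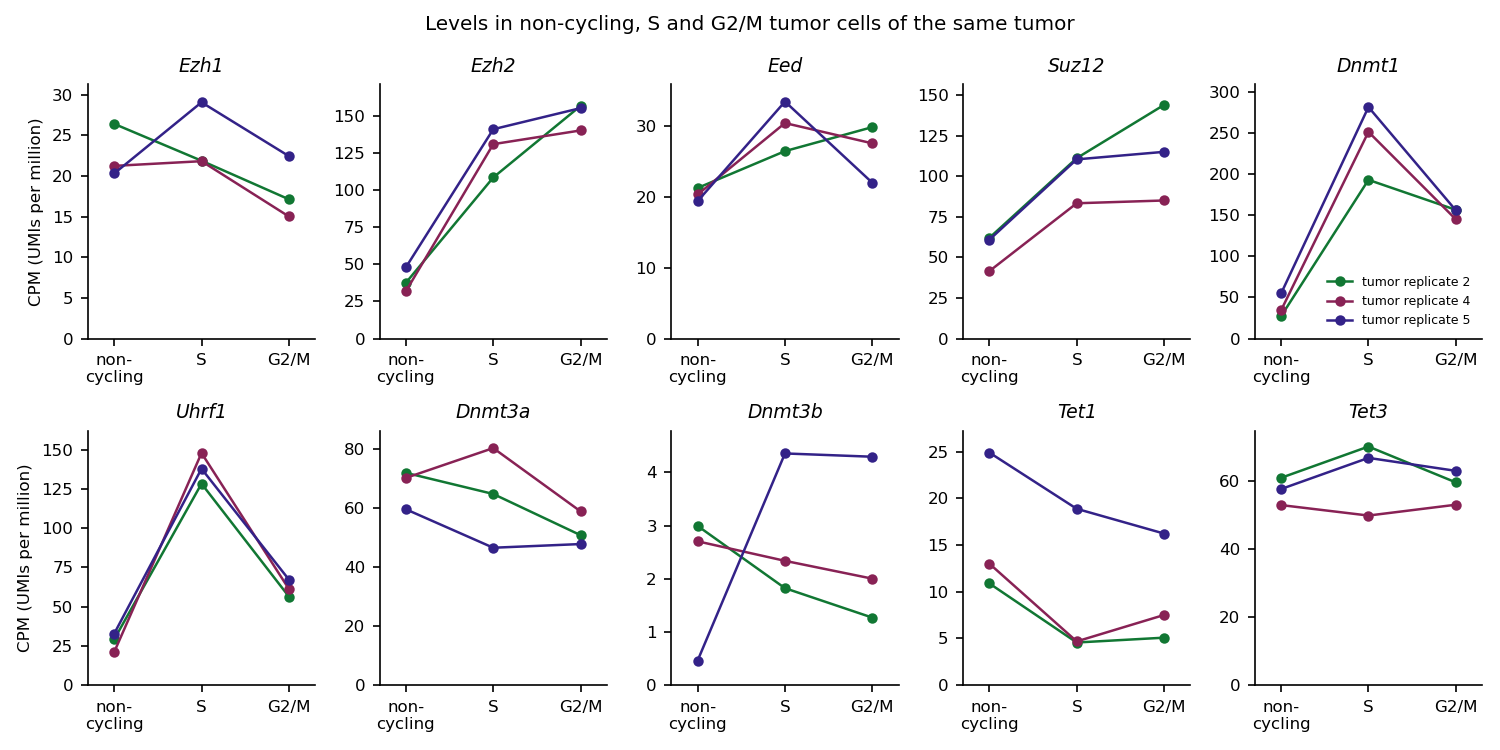
Levels of the 10 genes in CPM, on a linear axis from 0, in non-cycling, S and G2/M tumor cells of tumor replicates 2, 4 and 5, with 1 line per tumor. Uhrf1 and Dnmt1 peak in S cells in all 3 tumors, Ezh2 and Suz12 are raised in both S and G2/M cells, and Dnmt3a, which was not called, lies lower in G2/M than in non-cycling cells in all 3.

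The non-cycling tumor cells were also set against other cells of the same 5 tumors. Only the tumor cells were limited to non-cycling cells. The microglia-like and endothelial-like classes kept their cycling cells, whose part in these differences was not tested. Against microglia-like cells, 3 of the 9 members tested were higher and 1 lower (edgeR, adjusted p under 0.05), beside 49.7% of 10508 genes, 25.6% higher and 24.1% lower. Of the 3 higher, Uhrf1 and Tet1 passed the count filter only through the tumor cells, where they are high, so nothing is read from this count. The genes called split into 2687 higher and 2537 lower with TMM scaling and 4521 and 1773 without. The median log2 fold change was -0.09 over the members and 0.06 over all genes. Against endothelial-like cells, 1 was higher and 2 were lower, beside 38.1% of 8479 genes, 17.5% higher and 20.6% lower, with medians of 0.10 and 0.03 and a split of 1487 and 1746 with TMM scaling and 1979 and 1537 without.

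Ezh2 was at 27.4, 37.6, 46.3, 31.9 and 48.0 CPM in non-cycling tumor cells of tumors 1 to 5 and at 18.2, 13.4, 7.87, 15.6 and 28.0 CPM in their microglia-like cells. It was higher in tumor cells in each tumor, although the 2 ranges met between 27.4 and 28.0 CPM (log2 fold change 0.90 ± 0.27, SE; edgeR adjusted p = 0.0214). Free RNA of the 5 tumors held 14.3, 39.5, 26.2, 47.1 and 59.2 CPM of Ezh2, above the non-cycling tumor cells in tumors 2, 4 and 5, and its part in the difference was not tested. This call was lost without tumor 2 (adjusted p = 0.0796), with a mitochondrial limit of 10% (0.106), with no doublets removed (0.0543) and with tumor cells taken by the fusion allele (0.0550). Over all 17 alternatives its log2 fold change ran from 0.55 to 1.84. In endothelial-like cells Ezh2 was at 30.7, 21.7, 21.2, 48.2 and 23.9 CPM, a range that overlapped that of tumor cells (log2 fold change 0.22 ± 0.30, SE; edgeR adjusted p = 0.590).

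Eed went the other way. It was at 19.6, 21.2, 22.4, 20.3 and 19.4 CPM in non-cycling tumor cells and at 33.4, 34.9, 30.3, 36.0 and 36.2 CPM in microglia-like cells. The ranges were far apart and the spread within each class was small (log2 fold change -1.11 ± 0.18, SE; edgeR adjusted p = 0.000676). Ezh1 was lower in tumor cells than in endothelial-like cells, at 45.0, 26.4, 31.4, 21.2 and 20.3 CPM against 51.1, 30.02, 97.2, 36.7 and 44.4 CPM (log2 fold change -0.93 ± 0.26, SE; edgeR adjusted p = 0.0205). It was lower in each tumor, but the ranges overlapped and the call was lost without tumor 3, 4 or 5 (adjusted p from 0.0605 to 0.0630) or with tumor cells taken by the fusion allele (0.137). Suz12 narrowly missed the threshold against endothelial-like cells (log2 fold change -0.63 ± 0.22, SE; edgeR adjusted p = 0.0505) and passed it under 5 of the alternatives.

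Uhrf1 was at 9.78, 29.1, 11.9, 21.0 and 32.7 CPM in non-cycling tumor cells and at 1.52, 12.8, 0, 6.11 and 10.3 CPM in microglia-like cells, higher in each tumor. Because it passed the filter on low counts through the tumor cells, where it is high, its test is taken from the fit with no filter (log2 fold change 1.57 ± 0.33, SE; edgeR adjusted p = 1.94e-05). The filtered fit gave Uhrf1 a larger adjusted p (log2 fold change 1.44 ± 0.40, SE; edgeR adjusted p = 0.0136). The microglia-like cells of tumor 3 had 0 Uhrf1 UMIs, which allows up to 1.82 CPM, and free RNA of the 5 tumors had 3.99, 40.0, 7.13, 40.7 and 36.0 CPM of it. Dnmt1 was lower in non-cycling tumor cells, at 17.6, 27.2, 13.4, 34.4 and 54.9 CPM, than in endothelial-like cells, at 58.8, 41.7, 23.7, 77.5 and 78.6 CPM (log2 fold change -1.07 ± 0.23, SE; edgeR adjusted p = 0.00460). The direction was the same in each tumor while the ranges overlapped. Free RNA of tumors 1 to 5 held 18.2, 47.3, 26.7, 57.0 and 90.2 CPM of Dnmt1, above the non-cycling tumor cells in each tumor. It was also above the endothelial-like cells in tumors 2, 3 and 5, and its part in the difference was not tested. Uhrf1 did not pass against endothelial-like cells (log2 fold change 0.26 ± 0.32, SE). Against microglia-like cells Dnmt1 did not pass (log2 fold change 0.10 ± 0.19, SE; edgeR adjusted p = 0.701).

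Dnmt3a separated tumor from endothelial-like cells, at 54.8, 71.8, 67.2, 70.1 and 59.5 CPM against 23.0, 35.0, 34.9, 27.2 and 27.4 CPM (log2 fold change 1.00 ± 0.19, SE; edgeR adjusted p = 0.00255). No value overlapped. Free RNA held 38.8, 82.6, 108, 93.6 and 64.2 CPM of Dnmt3a in tumors 1 to 5, above the tumor cells in tumors 2 to 5, and its part in the difference was not tested. Tet1 was at 15.7, 10.9, 20.9, 13.001 and 24.9 CPM in non-cycling tumor cells and at 6.07, 6.98, 5.45, 4.08 and 3.69 CPM in microglia-like cells, again without overlap. Tet1 also passed the filter through the tumor cells, and its test too is from the fit with no filter (log2 fold change 1.35 ± 0.35, SE; edgeR adjusted p = 0.000711). The filtered fit gave Tet1 a larger adjusted p (log2 fold change 1.28 ± 0.33, SE; edgeR adjusted p = 0.00953). Free RNA held 11.98, 13.5, 22.6, 22.7 and 20.5 CPM of Tet1, above the tumor cells in tumors 2 to 4, and its part was not tested either. Tet3 was called in neither comparison (log2 fold change -0.09 ± 0.19 and 0.10 ± 0.21, SE). Without TMM scaling the median of all genes against microglia-like cells moved by 0.37 on the log2 scale, and the uncalled Ezh1, Suz12, Dnmt3a and Tet3 changed from slightly lower to slightly higher there.

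The order of classes within the tumors differed from gene to gene. It was taken over the 10 classes with at least 50 cells in at least 3 tumors, without ungated cells and without the sums of all tumor cells or all cycling tumor cells. Non-cycling OPC-like cells are a part of the OPC-like class (256 of 372 cells in tumor 4), so this pair is not separate. Neuroblast-like cells (tumors 3 and 5) and cells with both microglia and macrophage markers (tumors 2 and 4) were in too few tumors. Of these classes, Ezh2 was highest in G2/M tumor cells (151 ± 9.15 CPM, SD, n = 3), next in S cells (127 ± 16.6, SD, n = 3), whose range overlapped that of G2/M, and then, without overlap, in OPC-like cells (57.0 ± 14.9, SD, n = 4). From there down to microglia-like cells (16.6 ± 7.43, SD, n = 5) each class overlapped its neighbor. Uhrf1 and Dnmt1 both ran from S cells to G2/M cells to the other ranked classes without overlap at either step. Neuroblast-like cells of tumors 3 and 5, outside this order, held Ezh2 at 168 and 135 CPM, near the levels of S and G2/M cells. Their Dnmt1 was at 91.7 and 153 CPM, the higher of which lies within the G2/M range. These neuroblast-like cells were not split by cycling, so their levels may mix cycling and non-cycling cells.

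Dnmt3a had another order among the same 10 classes. Neuron-like cells led at 216 ± 57.0 CPM (SD, n = 4; 148 to 286 CPM), above the next ranked class, non-cycling OPC-like cells at 76.8 ± 26.96 CPM (SD, n = 3), without overlap. Endothelial-like cells were last at 29.5 ± 5.29 CPM (SD, n = 5), without overlap with G2/M tumor cells, the ranked class above, while microglia-like cells reached down to 30.4 CPM, within the endothelial-like range. Of the classes left out, neuroblast-like cells were at 90.2 and 96.2 CPM, and cells with both microglia and macrophage markers were at 28.6 and 44.5 CPM, the lower of which lies within the endothelial-like range. In neuron-like cells of controls 1 to 4 Dnmt3a was at 140, 151, 163 and 159 CPM, a range that overlapped that of the tumors. Tet3 also led in neuron-like cells, at 96.9 ± 25.6 CPM (SD, n = 4), though its range overlapped the next class, and Tet1 led in astrocyte-like cells at 30.9 ± 14.9 CPM (SD, n = 4), with overlap between all neighbors, while neuroblast-like cells were at 27.1 and 50.5 CPM. For Eed, Suz12, Ezh1 and Dnmt3b no neighboring classes were apart.

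**Figure D4:**
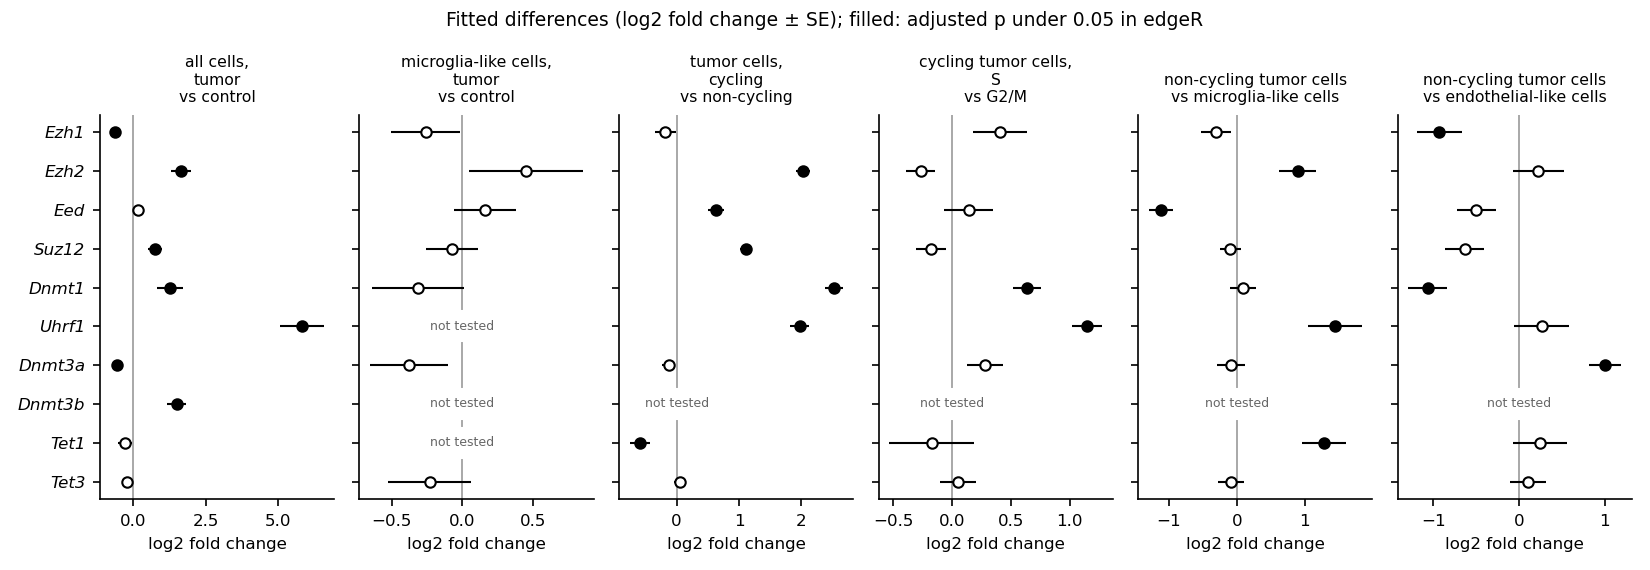
Fitted log2 fold changes ± SE of the members in 6 comparisons (first-named group over second), each panel with its own linear axis and a line at 0, where filled points passed an adjusted p of 0.05 in edgeR and members below the count filter are marked as not tested. The 5 members higher over all cells include Ezh2, Suz12, Dnmt1 and Uhrf1, which were also called higher in cycling tumor cells, and no member was called in microglia-like cells. Over all cells Uhrf1 passed the count filter through the tumors, where it is high.

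Microglia-like cells, the resident macrophages of the brain, allowed a comparison of tumor with control brain within 1 class, with 108 to 176 cells per control and 243 to 381 per tumor. None of the 7 members tested was called in edgeR, 0 had an unadjusted p under 0.05, and 0 were called by DESeq2 or voom, while with no filter on low counts 1 of 10, Uhrf1, was called higher, beside 44.7% of 8612 genes called in edgeR (1800 higher and 2052 lower with TMM scaling, 987 and 3199 without). The median log2 fold change was -0.23 over the members and -0.01 over all genes. Sums in this class hold few member UMIs, for example 4 to 13 of Ezh2 per control and 12 to 38 per tumor.

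Ezh2 was at 11.7, 20.8, 10.3 and 18.0 CPM in control and at 18.2, 13.4, 7.87, 15.6 and 28.0 CPM in tumor microglia-like cells, overlapping values (log2 fold change 0.45 ± 0.40, SE; edgeR adjusted p = 0.389). Dnmt3a was at 67.1, 109, 109 and 97.0 CPM in controls and at 30.4, 48.9, 87.8, 49.6 and 59.0 CPM in tumors, lower in 4 of 5 tumors than in any control (log2 fold change -0.38 ± 0.28, SE; edgeR adjusted p = 0.288). Suz12 was at 58.4, 60.8, 67.2 and 59.3 CPM in controls and 39.5, 51.2, 44.2, 37.4 and 47.2 CPM in tumors, lower in all, while the fit gave a log2 fold change of -0.07 ± 0.18 (SE; edgeR adjusted p = 0.845).

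These values moved with the scaling. TMM moved the median of all genes by 0.42 on the log2 scale here, and with library totals in its place Dnmt3a (-0.80, edgeR adjusted p = 0.0309) and Suz12 (-0.50, adjusted p = 0.0415) were called lower. Eed, Ezh1, Dnmt1 and Tet3 had log2 fold changes of 0.16 ± 0.22, -0.26 ± 0.25, -0.31 ± 0.33 and -0.23 ± 0.29 (SE). Free RNA of tumor libraries carried 18.2 to 90.2 CPM of Dnmt1, and with the tumor-cell RNA that the fusion allele implies subtracted, Dnmt1 was called lower at -0.98 (edgeR adjusted p = 0.0101).

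Tet1, Uhrf1 and Dnmt3b did not pass the filter in microglia-like cells. Tet1 was at 23.3, 20.8, 15.5 and 5.39 CPM in controls and 6.07, 6.98, 5.45, 4.08 and 3.69 CPM in tumors, where control 4 alone reached the tumor range. Without control 4 it passed the filter, through the other controls, where it was high, so no test is given for it. Uhrf1 had 2 UMIs in the controls, all in control 1, and 46 in the tumors (log2 fold change with no filter 3.0004, edgeR adjusted p = 0.0477). With the controls this near 0, the size of this fold change is not read. In each tumor the free-RNA level of Uhrf1 given above was higher than that of microglia-like cells, and its part in this difference was not tested.

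Astrocyte-like cells could be compared between controls 2, 3 and 4 and tumors 1, 2, 3 and 5, and none of the 6 members tested was called in edgeR or DESeq2, nor had any an unadjusted p under 0.05, beside 25.8% of 5971 genes. The median log2 fold change was -0.05 over the members and 0.04 over all genes. The members tested had 2 to 38 UMIs per sum in this class. Endothelial-like cells numbered 13 to 20 per control, too few for a comparison with tumors. Neuron-like cells of controls 1 to 4 and tumors 1, 2, 3 and 5 were not fitted. Their Suz12 was at 40.0, 38.4, 41.8 and 36.1 CPM in controls and 63.6, 67.9, 69.3 and 67.5 CPM in tumors. Dnmt1 was at 33.2, 32.4, 38.9 and 34.7 CPM against 39.9, 43.7, 51.4 and 83.8 CPM. Uhrf1 had 0 to 2 UMIs per control and 1 to 8 per tumor. The other members overlapped between the groups. Free RNA of these tumors held 42.2 to 87.4 CPM of Suz12, and its part was not tested.

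Over 53 sums of a mouse and a class (9 mice, 11 classes), the genes whose log2(CPM + 10) ran most like that of Ezh2 were Nasp (r = 0.88), H2afx (0.88), Nono (0.85), Tex30 (0.85) and Tmpo (0.84). For Dnmt1 they were Racgap1 (0.87), Dut (0.87), Kif4 (0.85), Topbp1 (0.85) and Ect2 (0.85). For Ezh1 they were Itch (0.79), Tmem245 (0.77), Rnf103 (0.77), Mast4 (0.76) and Pik3c2a (0.75), and for Dnmt3a Srek1 (0.88), Nktr (0.87), Rbm28 (0.86), Snrnp70 (0.86) and Gm4924 (0.85). Among the members themselves Ezh2 ran with Uhrf1 (0.78) and Dnmt1 (0.73), Dnmt1 with Uhrf1 (0.72) and Dnmt3a with Tet3 (0.66). These correlations are descriptions over 17596 genes, and the sums share mice, libraries and depth.

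The partners of these enzymes were taken from lists of known subunits and cofactors. Over all cells, 3 of 8 tested partner subunits of PRC2 were higher and 2 lower in tumors, beside 32.3% and 29.4% of all genes. Phf19, which binds active chromatin and recruits PRC2, had 33 UMIs in controls and 489 in tumors. It passed the filter through the tumors, so neither its call nor the count of 3 that includes it is read as a result. The histone-binding subunits Rbbp4 and Rbbp7 were higher by 1.10 ± 0.24 and 0.82 ± 0.25 on the log2 scale. Mtf2, a Polycomb-like partner related to Phf19, was lower (-1.27 ± 0.19). In cycling against non-cycling tumor cells, Phf19 (3.15 ± 0.23), Rbbp7 (0.87 ± 0.09) and Rbbp4 (0.85 ± 0.10) were higher, and Jarid2, a subunit that guides PRC2 in early development, was lower (-0.94 ± 0.12), so that 4 of 8 were called, beside 33.2% of all genes.

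Of 11 tested cofactors and readers of DNA methylation, 4 were higher and 4 lower over all cells, beside 32.3% and 29.4% of all genes, among them Hells, a chromatin remodeler that DNA methylation requires (2.40 ± 0.48), the methyl-binding genes Mbd3 (1.71 ± 0.26) and Mbd2 (1.09 ± 0.24), and the repair glycosylase Mbd4 (-0.59 ± 0.17). In cycling cells 5 were higher and 1 lower, beside 17.3% and 15.9% of all genes, led by Hells, which was at 88.9, 80.8 and 108 CPM in cycling and 10.9, 5.24 and 9.22 CPM in non-cycling cells of tumors 2, 4 and 5 (log2 fold change 3.68 ± 0.18, SE). Uhrf2, the paralog of Uhrf1, was also higher in cycling cells (0.74 ± 0.13) but lower in S than in G2/M cells (-0.75 ± 0.16, SE; edgeR adjusted p = 0.00109), the opposite of Uhrf1 and of Hells (2.22 ± 0.14).

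The opposing enzymes and PRC1, a complex of which some forms read the PRC2 mark, were mixed. Of the H3K27 demethylases, Kdm6b was higher over all cells (log2 fold change 2.09 ± 0.28, SE; edgeR adjusted p = 0.000348), at 18.4 to 21.1 CPM in controls and 41.2 to 80.2 CPM in tumors, and Kdm6a did not pass. In microglia-like cells Kdm6b was higher in tumors as well (1.16 ± 0.28, SE; edgeR adjusted p = 0.00447). Of 19 PRC1 subunits, 3 were higher and 5 lower over all cells, beside 32.3% and 29.4% of all genes, with Phc2 (1.38 ± 0.22) and Rnf2 (1.07 ± 0.25) higher and Ring1 (-1.04 ± 0.16) and Pcgf5 (-0.78 ± 0.14) lower. In cycling cells 2 of 19 were called, Pcgf5 (1.25 ± 0.13) and Rybp (0.54 ± 0.12), both higher, beside 33.2% of all genes.

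Loci known as PRC2 targets were the 2 INK4 genes and 39 Hox genes. Over all cells only Cdkn2a and Cdkn2b passed the count filter, and they did so through the tumors, where they are high, so their levels are given as a description. Cdkn2a, which encodes cell cycle inhibitors, had 3, 2, 3 and 3 UMIs in controls 1 to 4 and 123, 3991, 80, 8384 and 2602 UMIs in tumors 1 to 5, or 20.8, 236, 11.4, 223 and 162 CPM. Pooled over mice the ratio was 1203 with a 95% counting interval of 672 to 2410. Cdkn2b was at 0.145 to 0.820 CPM in controls and 7.45 to 22.3 CPM in tumors.

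Within tumor cells these genes went different ways. Cdkn2a was at 353, 252 and 228 CPM in cycling and at 334, 225 and 169 CPM in non-cycling cells of tumors 2, 4 and 5, a small difference (log2 fold change 0.29 ± 0.09, SE; edgeR adjusted p = 0.0224). Cdkn2b was at 9.54, 7.06 and 5.39 CPM in cycling and 35.6, 15.2 and 12.5 CPM in non-cycling cells, lower in each tumor (log2 fold change -1.33 ± 0.20, SE; edgeR adjusted p = 0.000483). Free RNA of these tumors held 102, 142 and 82.4 CPM of Cdkn2a, below both classes, and 15.07, 16.3 and 5.53 CPM of Cdkn2b, above cycling cells in each tumor, and its part in these levels was not tested. Of the 41 loci 4 were tested in cycling against non-cycling cells, and besides these Hoxa5 was called lower (log2 fold change -0.68 ± 0.20, SE; edgeR adjusted p = 0.0205) and Hoxa4 was not called. Hoxa5 had 7, 2 and 171 UMIs in cycling and 17, 7 and 160 UMIs in non-cycling cells of tumors 2, 4 and 5, so most of its UMIs came from tumor 5.

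The Hox genes set 1 tumor apart. Hoxa2 to Hoxa7 together had 9, 16, 2 and 6 UMIs in controls 1 to 4 and 8, 104, 2, 24 and 2434 UMIs in tumors 1 to 5. Tumor 5 was thus at 151 CPM and tumor 2 at 6.16 CPM, while the other 7 mice lay between 0.126 and 1.36 CPM. In tumor 5 they were at 165 CPM in non-cycling and 136 CPM in cycling tumor cells, and at 32.5 and 58.1 CPM in microglia-like and endothelial-like cells. The microglia-like and endothelial-like values rest on 44 and 17 UMIs. Microglia-like cells of this tumor also held fusion-allele UMIs, as given above. The part of free RNA from tumor cells in these Hoxa levels was not tested. The other 33 Hox genes summed to 0.189 to 3.12 CPM over the 9 mice, with tumor 5 at 0.435 CPM. Tumor 5 also had the highest Ezh2, Suz12, Dnmt1 and Uhrf1 over all cells, and a link of these with its Hoxa levels was not tested.

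Germline genes that promoter methylation keeps silent in the body were sparse. Of 9, 4 passed the filter over all cells, and they did so through the controls, where they are higher, so their UMIs are given as a description with no test. Taf7l had 527 UMIs in controls and 26 in tumors, Dazl had 298 and 37, Ddx4 had 275 and 40, and Sycp3 had 100 and 16. None of the 9 passed the filter in the comparisons within tumor cells.

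**Figure D5:**
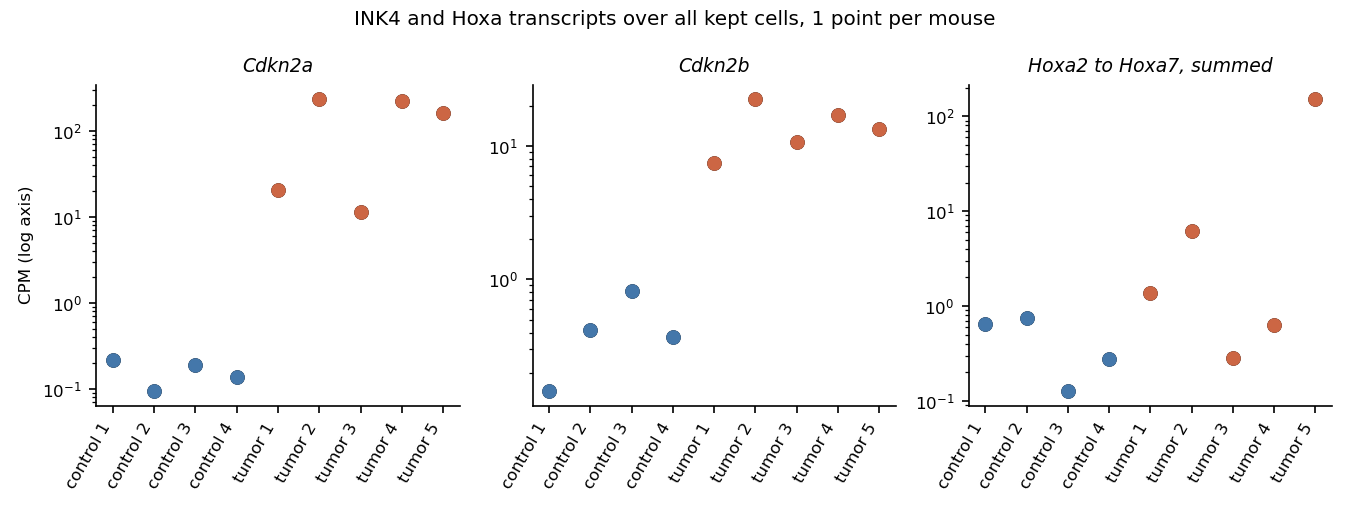
Levels of Cdkn2a, Cdkn2b and the sum of Hoxa2 to Hoxa7 over all kept cells in CPM on log axes, with 1 point for each of the 4 controls and 5 tumors. All tumors lie above all controls for Cdkn2a and Cdkn2b, and tumor 5 stands alone at 151 CPM for the Hoxa genes.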

How the data were processed

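Single-cell suspensions of 5 tumor-bearing and 4 control brains had been sequenced with the 10x Genomics 5′ chemistry. The values used are raw UMI counts per gene and barcode, which the authors deposited unnormalized and unfiltered for cells. The submitters' processing notes name Cell Ranger 7, the matrix headers Cell Ranger 6.1.2, and the notes give build mm10 and Scanpy 1.8.2. Control replicate 4 has lists of features and barcodes shorter than its matrix, and its rows were read in the order of the other libraries.

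Of the 10000 barcodes with most UMIs per library, those with 200 to 6000 genes were kept. A mixture model on mitochondrial share and gene number then took out part of these barcodes in each library. Their mitochondrial share averaged 3.68% and 4.84% in tumors 4 and 5, and 12.5% to 22.4% in the other libraries. The kept cells of controls averaged 7.61% to 8.72%, above the barcodes taken out of tumors 4 and 5. Whether the barcodes taken out were damaged cells was not tested. Scrublet (in Scanpy 1.11.5) removed doublets at the expected rate of the assay. A cell was named "X-like" when it held at least 4 UMIs from at least 3 markers of exactly 1 list and at least 3 times the free-RNA share. Tumor cells held at least 3 of 10 neural progenitor markers at 15 or more UMIs per 10000, and were cycling at 15 or more per 10000 of 33 cell-cycle UMIs and non-cycling under 5. These limits were set after seeing the data. UMIs were summed per mouse and class of at least 50 cells and compared in edgeR 4.0.16 by its quasi-likelihood F-test (run in R 4.3.3 with TMM scaling, filterByExpr and Benjamini-Hochberg adjustment over all genes), with the tumor as a block within tumors. DESeq2 1.42.0 and limma 3.58.1 (voom) were alternatives, and 2 alternatives (subtracted tumor-cell RNA, no TMM) were chosen after seeing the data. The scripts were tested on simulated data. The members and lists were chosen with earlier results of these data known. Named are all members and, of each list and comparison, at most 4 called genes with the smallest p. Counting intervals (95%) and limits for a count of 0 (3 UMIs) cover counting error only.

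Same-numbered tumors and controls did not deviate together (r = 0.095, 0.048, 0.006 and 0.063 over 17596 genes), so numbers were not treated as pairs.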

Additional observations from a re-analysis of the deposited data

Results flagged for a closer look

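In 78 groups of 4 or 5 mice, 4 values lay far from the others of their group by Dixon's ratio, and chance flags about 1 in 20 groups. Suz12 in astrocyte-like cells was at 41.2 CPM in tumor 3, below the 57.2 to 57.9 CPM of the other 3 tumors. Uhrf1 in microglia-like cells was at 5.84 CPM in control 1, from 2 UMIs, while the other controls had 0. Tet3 in microglia-like cells was at 93.9 CPM in tumor 3, above the 33.9 to 45.4 CPM of the other tumors. Hoxa5 over all cells was at 64.4 CPM in tumor 5, above the 0.142 to 2.19 CPM of the other tumors.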

How the results depend on the processing

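Of the values that answer a comparison, 133 stayed within their limits under the alternatives and 8 moved, and for the members 896 were the same, 8 passed newly, 30 no longer passed and 40 changed sign, all 40 of members that were not called. The causes were not tested. The genes called in cycling against non-cycling cells numbered 4022, with DESeq2 2322 and with no replicate block 433. Those between S and G2/M cells numbered 1167 (549 higher, 618 lower), with DESeq2 400 (120 and 280), with no replicate block 153, and 716 to 1184 with 1 tumor left out, fewest without tumor 4. Astrocyte-like cells gave 1540, and 922 to 1591 with 1 mouse left out (1014 without control 3, 922 without control 4). Against endothelial-like cells 3233 became 5080 with no filter on low counts. With replicate numbers as a block, although they do not pair the mice, all cells gave 8795 genes with 3 members higher and 1 lower (Dnmt1, adjusted p = 0.156, Suz12, 0.0801, and Dnmt3a, 0.0627, no longer passed in edgeR), microglia-like cells 3431 and astrocyte-like cells 1111, where Tet3 was at 0.20, Suz12 at -0.28, Ezh1 at -0.0045 and Dnmt3a at 0.22 (log2). With no block, 3 members were higher and 0 lower in cycling cells (Eed, 0.249, Suz12, 0.0982, and Tet1, 0.806, lost), and Dnmt1 between S and G2/M (0.384), Uhrf1 against microglia-like (0.118) and Dnmt1 against endothelial-like cells (0.0896) were lost.

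Other changes of sign were as follows, on the log2 scale. Without TMM, Eed was at -0.091 over all cells and -0.27 in microglia-like cells, Suz12 at -0.013 in astrocyte-like cells, Tet3 at -0.026 in cycling cells, and Ezh1, Suz12, Dnmt3a and Tet3 at 0.071, 0.28, 0.29 and 0.29 against microglia-like cells. With tumor cells taken by the fusion allele, Dnmt3a and Tet3 were at 0.047 and 0.26 there. In microglia-like cells Suz12 was at 0.092 with no filter and 0.043 with a mitochondrial limit of 10%, and Eed at -0.0051 with no doublets removed. In astrocyte-like cells Suz12 was at -0.17 with at least 20 cells and -0.15 with tumor-cell RNA subtracted. In cycling cells Tet3 was at -0.050 by the G2/M list alone and -0.082 by the S list alone. Between S and G2/M cells Tet3 was at -0.0078 with no filter, -0.0032 with the 10% limit and -0.011 with a stricter gate. Against microglia-like cells Dnmt1 was at -0.0016 with the 10% limit. Leaving out 1 mouse gave -0.14 to 0.058 for Suz12 and -0.31 to 0.011 for Ezh1 in microglia-like cells, -0.015 to 0.91 for Ezh2, -0.094 to 0.21 for Suz12 and -0.32 to 0.11 for Dnmt3a in astrocyte-like cells, -0.072 to 0.14 for Tet3, -0.037 to 0.26 for Eed and -0.20 to 0.075 for Tet1 between S and G2/M cells, and -0.20 to 0.11 for Dnmt3a and -0.21 to 0.11 for Tet3 against microglia-like cells. Endothelial-like cells of tumors and controls were not compared, nor astrocyte-like cells under the 10% limit, for want of cells. Depth limits the values of small classes, as in astrocyte-like cells, where the members tested had 2 to 38 UMIs per sum.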

Other observations

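Neuroblast-like cells, which were not split by cycling, reached 50 cells only in tumors 3 and 5. Suz12 was at 88.7 and 89.7 CPM there, Uhrf1 at 55.6 and 27.9 CPM, and Tet3 at 82.7 and 73.05 CPM. Their Ezh2 share among Ezh1 and Ezh2 UMIs was 93.3% and 84.7%.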
